A study of Mus musculus with 24 samples.

Results

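A set of 10 genes that serve as markers of injury to the kidney tubule was followed in mouse kidneys after myocardial infarction (MI). The genes were Havcr1, Lcn2, Spp1, Clu, Vcam1, Sox9, Krt8, Krt18, Timp2 and Igfbp7. They were chosen by name, with earlier results of these data known. They were found by matching Ensembl identifiers to gene symbols among the 56941 genes of the count table. All 10 had a row in the table, and 7 of them passed the filter on low counts. The kidneys came from adult male wild-type C57BL/6J mice, all given isoflurane and buprenorphine for surgery. MI was induced by permanently tying off the left anterior descending artery of the heart, and sham mice had the same operation with no ligation. Kidneys were used from 8 sham mice, 8 mice killed 5d post-MI and 6 mice killed 28d post-MI. Sham mice were killed 5d after the operation and are the only controls, so that at 28d the time since surgery cannot be told apart from the infarction. Both comparisons with sham use the same 8 sham kidneys. Nothing in the labels ties kidneys to litters or days, and p-values for group differences weigh the difference against the spread between these kidneys.

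Injured tubule cells lose part of their transport machinery and switch on a set of genes for adhesion, matrix contact, cell shape and repair. Some of the products are shed into the urine, where kidney injury molecule 1 (Havcr1), neutrophil gelatinase-associated lipocalin (Lcn2), TIMP-2 (Timp2) and IGFBP7 (Igfbp7) are measured as signs of acute kidney injury. Clusterin (Clu) and osteopontin (Spp1) are secreted proteins, Vcam1 and Sox9 mark tubule cells that repair poorly or regenerate, and Krt8 and Krt18 encode the paired keratins of simple epithelia.

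RNA was read from the 3′ ends of transcripts, with molecular identifiers to remove copies made by PCR. The libraries held 2280618 to 3786275 counts. Levels are given as CPM, that is counts scaled to a common library size with TMM factors. They are not divided by transcript length, and levels are compared between kidneys and not between genes. The tissue carried the markers of kidney, with proximal tubule markers summing to 5439 to 7892 CPM in every kidney. Adrenal cortex markers summed to 967 CPM in sham replicate 2 and to 720.3 CPM in sham replicate 6, against at most 84.6 CPM elsewhere. Red blood cell markers ranged from 4931 to 18958 CPM 5d post-MI and from 2185 to 4084 CPM in sham kidneys, with no overlap, and their part in the results below was not tested. Neutrophil markers, among the usual sources of Lcn2, summed to at most 10.8 CPM in any kidney.

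None of the 7 genes past the count filter was called at an adjusted p-value below 0.05 in edgeR's quasi-likelihood test in any of the 3 comparisons. At 5d post-MI against sham, 0 of 7 were called and 1 had an unadjusted p-value below 0.05. Over the 12780 genes tested, 0.0704% were called and 7.90% were below 0.05 unadjusted. At 28d post-MI against sham, 0 of 7 were called and 1 was below 0.05 unadjusted, beside 0.0235% and 8.68% of all genes. At 28d against 5d post-MI, 0 of 7 were called and 1 was below 0.05 unadjusted, beside 0.415% and 9.05% of all genes. In DESeq2 the counts were 0, 0 and 1, the latter for Spp1, and in limma voom they were 0, 0 and 0. The medians of the 7 log2 fold changes were 0.021, −0.027 and −0.026 in the same order, where the medians over all genes tested were 0.00018, −0.0012 and −0.0046. Of the 7 fold changes, 4 were positive at 5d post-MI against sham, 2 at 28d post-MI against sham and 1 at 28d against 5d post-MI. Of all genes tested, 50.1%, 49.6% and 48.6% were positive in the same order. In a whole kidney, fewer cells of a type and less RNA per cell cannot be told apart.

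For the 7 genes past the count filter, the 95% confidence intervals give the size of change that these data leave room for. Over the 7 genes, the lowest bound and the highest bound were 0.631-fold and 1.31-fold at 5d post-MI against sham. They were 0.600-fold and 1.34-fold at 28d post-MI against sham, and 0.656-fold and 1.48-fold at 28d against 5d post-MI. The widest of these intervals belonged to Krt18 in each comparison. These bounds do not cover Havcr1, Lcn2 and Sox9. With no filter, their intervals at 5d post-MI against sham were 0.838-fold to 2.09-fold, 0.803-fold to 1.95-fold and 0.484-fold to 1.33-fold. For Havcr1 the interval was 0.286-fold to 0.969-fold at 28d post-MI against sham (adjusted p = 0.641 from edgeR). At 28d against 5d post-MI it was 0.221-fold to 0.716-fold (adjusted p = 0.210 from edgeR). Those of Lcn2 and Sox9 included no change.

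**Figure D1:**
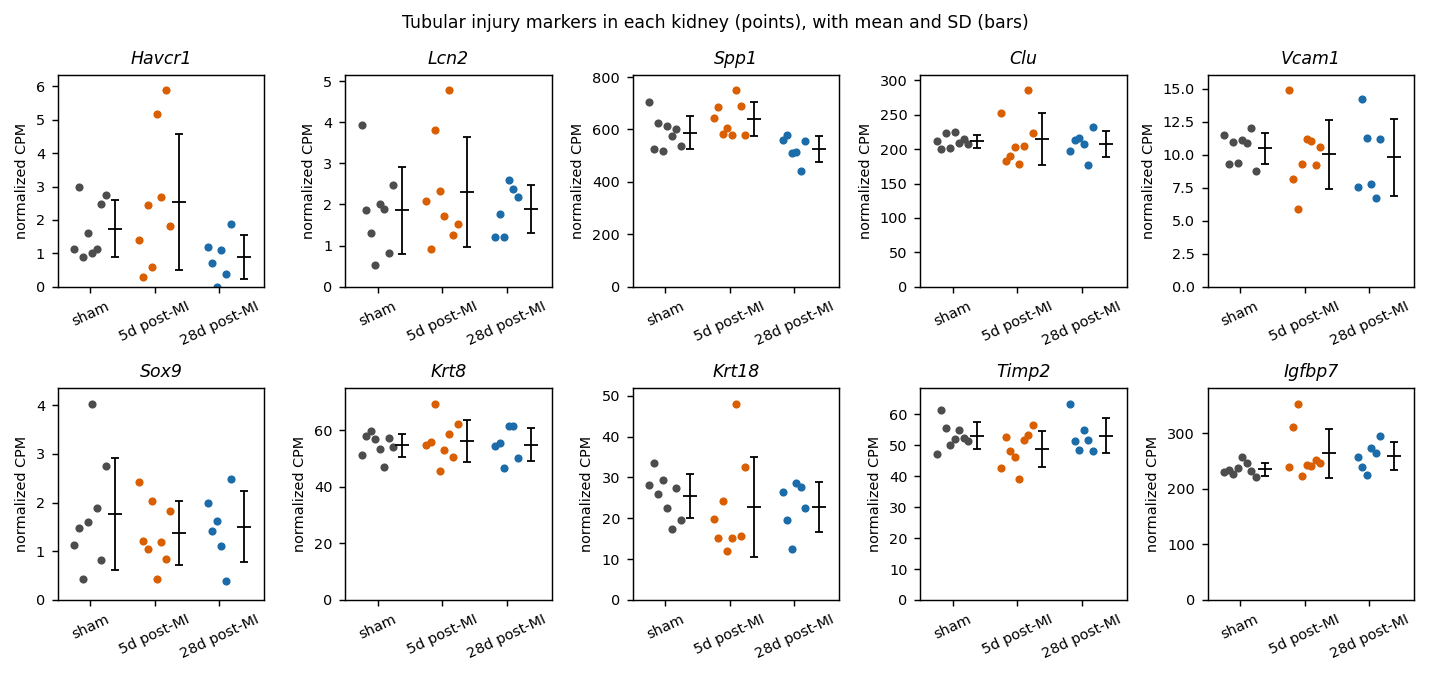
Level of each of the 10 injury markers, in normalized CPM on a linear axis from 0, in sham, 5d post-MI and 28d post-MI kidneys. Each point is 1 kidney, and the bars give the mean and SD of the group. Spp1 is the only one of the 10 genes for which 2 groups do not overlap, with the 28d post-MI kidneys at up to 577.5 CPM and the 5d post-MI kidneys from 578.2 CPM. The share of all genes that separate in this way was not counted. In the 5d group, 1 kidney stands at 48.1 CPM of Krt18.

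**Figure D2:**
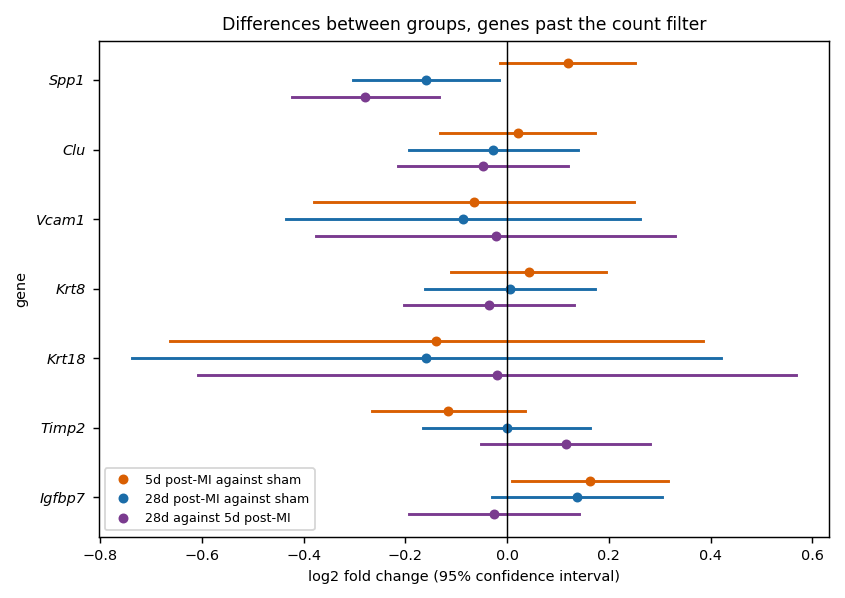
Log2 fold change (points) and 95% confidence interval (lines) of the 7 genes past the count filter in the 3 comparisons between groups, from edgeR. Only Spp1 in 28d against 5d post-MI and in 28d post-MI against sham, and Igfbp7 in 5d post-MI against sham, have intervals that leave out 0 before adjustment.

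The classical urinary injury markers were close to the limit of detection. Havcr1 encodes a phosphatidylserine receptor that injured proximal tubule cells place on their surface (ENSMUSG00000040405, chromosome 11, 46735080 to 46779578, plus strand, GRCm38). It was at 0.878, 1.37 and 2.98 CPM (lowest, median and highest) in sham kidneys. The same values were 0.302, 2.13 and 5.88 CPM 5d post-MI and 0, 0.912 and 1.87 CPM 28d post-MI. The 5d kidneys thus spanned the whole sham range on both sides, and the 28d kidneys lay in its lower part or below it. The counts behind these levels were 0 to 14 per kidney. The kidney at 0 had 2590822 counts, which allows up to 1.16 CPM before scaling with TMM factors.

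In exact permutation tests on mean log2 CPM, two-sided and unadjusted, Havcr1 differed by 0.22 at 5d post-MI against sham (p = 0.579, n = 8 and 8). It differed by −0.68 at 28d post-MI against sham (exact p = 0.0483, n = 6 and 8) and by −0.90 at 28d against 5d post-MI (exact p = 0.0789, n = 6 and 8). On the CPM scale the exact p at 28d post-MI against sham was 0.0669. This was the lowest p among 9 such tests of the 3 genes under the filter. The smallest p these designs allow is 0.000155 for 8 against 8 kidneys and 0.000333 for 6 against 8.

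Lcn2 encodes a lipocalin that binds iron-carrying siderophores and is made by injured distal tubule and by neutrophils (ENSMUSG00000026822, chromosome 2, 32384633 to 32388252, minus strand). It was at 0.535, 1.87 and 3.94 CPM in sham, 0.907, 1.90 and 4.78 CPM 5d post-MI, and 1.20, 1.98 and 2.60 CPM 28d post-MI. Each group lay within or across the range of the others, on 2 to 16 counts per kidney. The exact permutation p was 0.457 at 5d post-MI against sham, 0.737 at 28d post-MI against sham and 0.632 at 28d against 5d post-MI. In sham kidneys, the coefficient of variation of Lcn2 was 57.1%, where counting alone gives 41.3%, and no change in Lcn2 was detectable at this depth.

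Among the 7 tested genes and 3 comparisons, the lowest p-value belonged to Spp1 between the 2 times after MI. Osteopontin, its product, is a secreted phosphoprotein of bone and of kidney tubules that binds integrins (ENSMUSG00000029304, chromosome 5, 104435118 to 104441050, plus strand). Sham kidneys were at 519, 589 and 706 CPM (lowest, median and highest). The 5d post-MI kidneys were at 578, 624.7 and 749 CPM, and the 28d post-MI kidneys at 441, 536 and 578 CPM. All 6 kidneys at 28d were below all 8 kidneys at 5d, with the nearest values at 577.5 and 578.2 CPM, and 3 of the 6 fell under the whole sham range. The share of all genes tested that separate in this way was not counted.

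The log2 fold change of Spp1 at 28d against 5d post-MI was −0.28 (SE 0.071, 95% confidence interval −0.42 to −0.13), or 0.824-fold, with an adjusted p-value of 0.0713 from edgeR. Over 33 alternative fits it ranged from −0.31 to −0.23, and the adjusted p-value ranged from 7.87e-05 to 0.203 and was below 0.05 in 7. The call was gained when 1 kidney was left out, namely sham replicate 1 (adjusted p = 0.0301) or 5d post-MI replicate 9 (adjusted p = 0.0466). Against sham, the log2 fold change of Spp1 was 0.12 at 5d post-MI (SE 0.065, adjusted p = 0.676), and its difference was −0.16 at 28d post-MI (SE 0.071, adjusted p = 0.530). Without the 2 kidneys with adrenal markers, these were 0.094 and −0.19, and the value for 28d against 5d post-MI was −0.28 (adjusted p = 0.0745). Spp1 overlaps Gm42793 on the same strand, so reads of that gene could not be told apart in the shared stretch.

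Clu encodes clusterin, an extracellular chaperone that rises in injured tubules (ENSMUSG00000022037, chromosome 14, 65968483 to 65981547, plus strand). Its mean level was 212 ± 9.17 CPM (SD, n = 8) in sham, 215 ± 37.4 CPM (SD, n = 8) 5d post-MI and 208 ± 18.8 CPM (SD, n = 6) 28d post-MI. The range was 200 to 225 CPM in sham kidneys, 179 to 286 CPM at 5d and 177 to 232 CPM at 28d. The 5d kidneys lay on both sides of the sham range, with 2 above every sham kidney and 3 below. The coefficient of variation was 4.34% in sham and 17.4% 5d post-MI, where counting alone gives 3.88% and 3.97%. No test of this spread was made. The log2 fold change was 0.021 at 5d post-MI against sham (SE 0.075) and −0.027 at 28d post-MI against sham (SE 0.081).

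The adhesion molecule Vcam1 and the transcription factor Sox9 were low. Vcam1 binds integrins of leukocytes and is also made by tubule cells that fail to repair (ENSMUSG00000027962, chromosome 3, 116109949 to 116129688, minus strand). It was at 8.81, 10.9 and 12.0 CPM in sham kidneys, 5.91, 9.97 and 14.9 CPM 5d post-MI and 6.71, 9.50 and 14.2 CPM 28d post-MI. The sham kidneys lay inside the range of both MI groups. The log2 fold changes against sham were −0.065 at 5d (95% confidence interval −0.38 to 0.25) and −0.087 at 28d (−0.44 to 0.26). Vcam1 overlaps Gm43109 on the opposite strand. Sox9, which drives the regenerating state of tubule cells (ENSMUSG00000000567, chromosome 11, 112782224 to 112787760, plus strand), was at 1.77 ± 1.15 CPM (SD, n = 8) in sham, 1.38 ± 0.665 CPM (SD, n = 8) 5d post-MI and 1.51 ± 0.724 CPM (SD, n = 6) 28d post-MI. It rested on 1 to 12 counts per kidney, and the exact permutation p was 0.520 at 5d post-MI against sham, 0.744 at 28d post-MI against sham and 0.770 at 28d against 5d post-MI.

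The keratin genes Krt8 and Krt18 encode partners that assemble in pairs into the filaments of simple epithelia. They lie on chromosome 15 in GRCm38, Krt8 at 101996698 to 102004482 on the minus strand (ENSMUSG00000049382) and Krt18 at 102028180 to 102032027 on the plus strand (ENSMUSG00000023043), with 23697 bases between them. Theirs was the only pair of members whose deviations from the group means were called as varying together by ranks, and their start regions are shown for that reason. Whether these regions have a part in it was not tested. RefSeq windows of GRCm38.p6, 250 bases before and 50 after the annotated start, were available for 7 of the 10 genes. The capitals mark matches on either strand to the TATA box (TATAAA), the GC box (GGGCGG) or the AP-1 site (TGANTCA), and the sequences run 5′ to 3′ on the strand of the gene, at chr15:102004293-102004592 (minus) for Krt8 and chr15:102027966-102028265 (plus) for Krt18.
Krt8: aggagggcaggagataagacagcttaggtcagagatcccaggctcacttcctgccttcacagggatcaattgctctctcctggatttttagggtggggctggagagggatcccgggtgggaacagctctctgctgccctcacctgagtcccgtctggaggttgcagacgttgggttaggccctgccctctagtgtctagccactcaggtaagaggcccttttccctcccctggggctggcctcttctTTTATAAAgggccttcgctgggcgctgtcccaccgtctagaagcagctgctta
Krt18: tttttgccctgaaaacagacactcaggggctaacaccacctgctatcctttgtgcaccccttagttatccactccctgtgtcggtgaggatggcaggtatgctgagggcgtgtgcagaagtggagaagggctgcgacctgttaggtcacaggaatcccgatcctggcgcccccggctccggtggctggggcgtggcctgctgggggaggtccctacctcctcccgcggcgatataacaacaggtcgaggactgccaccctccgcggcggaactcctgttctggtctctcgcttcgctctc
The Krt8 window held 2 overlapping matches to the TATA box, which lie across the annotated start, and the Krt18 window held none of the 3 motifs. Of all 32851 RefSeq windows, 13.6% held the TATA box, 35.7% the GC box and 7.81% the AP-1 site. Among the other members, Igfbp7 had 4 GC box matches, Timp2 and Lcn2 had 1 each, 1 of the 3 Havcr1 windows had an AP-1 match, and 1 of the 2 Spp1 windows had a TATA box match. A match describes letters only, and the absence of one says nothing about the factor.

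Krt8 was at 54.7 ± 4.17 CPM (SD, n = 8) in sham, 56.3 ± 7.37 CPM (SD, n = 8) 5d post-MI and 54.99 ± 5.95 CPM (SD, n = 6) 28d post-MI. The log2 fold changes were 0.042 at 5d post-MI against sham (95% confidence interval −0.11 to 0.19), 0.0065 at 28d post-MI against sham (−0.16 to 0.17) and −0.036 at 28d against 5d post-MI (−0.20 to 0.13). The means thus lay within 1 SD of each other in each comparison. Krt8 overlaps Gm36026 on the opposite strand.

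In sham and 5d post-MI kidneys, Krt18 had the highest coefficient of variation among the 7 genes past the filter. It was at 17.3, 26.6 and 33.5 CPM (lowest, median and highest) in sham kidneys, 12.0, 17.6 and 48.1 CPM 5d post-MI and 12.5, 24.4 and 28.6 CPM 28d post-MI. At 5d post-MI, 1 kidney was above every sham kidney and 4 were under the whole sham range. The coefficient of variation was 21.1% in sham and 53.3% 5d post-MI, against 11.2% and 12.0% from counting alone. The log2 fold change was −0.14 at 5d post-MI against sham (SE 0.25, adjusted p = 0.943) and −0.16 at 28d post-MI against sham (SE 0.28, adjusted p = 0.925). Without 5d post-MI replicate 7, the highest kidney, the first of these was −0.40 (adjusted p = 0.677).

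The level of Krt18 moved with the amount of urothelium marker RNA in a kidney. The urothelium is the lining of the renal pelvis and ureter, and its 8 markers (Upk1a, Upk1b, Upk2, Upk3a, Upk3b, Krt5, Krt15 and Psca) summed to 48.5 to 122 CPM in sham kidneys, 12.8 to 162 CPM 5d post-MI and 27.9 to 84.6 CPM 28d post-MI. The kidney with the lowest sum, 5d post-MI replicate 5, had the lowest Krt18, and the kidney with the highest sum, 5d post-MI replicate 7, had the highest. Over deviations from the group means in 22 kidneys, Pearson's r was 0.902 and Spearman's rho was 0.886 (permutation p = 1e-05 for each, the smallest that 100000 shuffles can give, adjusted p = 0.0013). Without the 2 kidneys farthest from the median of the markers, 5d post-MI replicates 5 and 7, r was 0.850. Of 130 relations between the 10 genes and 13 marker lists, this was the only one with an adjusted p-value below 0.05. With the urothelium markers as a covariate, a fit chosen after this relation was seen, the log2 fold change of Krt18 turned to 0.14 at 5d post-MI against sham (adjusted p = 0.860), 0.26 at 28d post-MI against sham (adjusted p = 0.672) and 0.13 at 28d against 5d post-MI (adjusted p = 0.824). For Krt8 and the urothelium markers, r was 0.610 (permutation, adjusted p = 0.294) and rho was 0.640 (permutation, adjusted p = 0.196).

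**Figure D3:**
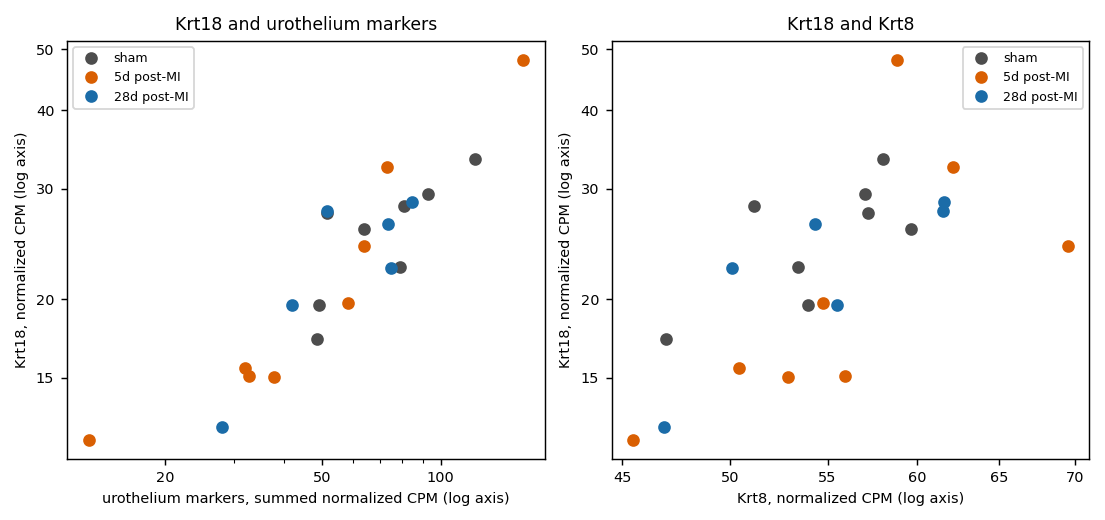
Krt18 in each kidney against the summed urothelium markers (left) and against Krt8 (right), all in normalized CPM on log axes. Each point is 1 of 22 kidneys coloured by group, and Krt18 rises along the urothelium markers from 12.0 CPM to 48.1 CPM within the 5d post-MI group.

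Timp2 and Igfbp7, whose products are read together in urine as signs of cell cycle arrest, were not called in any comparison. Timp2 encodes an inhibitor of matrix metalloproteinases (ENSMUSG00000017466, chromosome 11, 118301069 to 118355740, minus strand). It was at 47.2, 52.2 and 61.4 CPM in sham, 39.1, 49.996 and 56.4 CPM 5d post-MI and 48.3, 51.6 and 63.5 CPM 28d post-MI. The groups overlapped, with 3 of 8 kidneys at 5d under the lowest sham value. The log2 fold change was −0.12 at 5d post-MI against sham (SE 0.075, adjusted p = 0.756) and −0.00052 at 28d post-MI against sham (SE 0.081). Timp2 overlaps Cep295nl on the same strand.

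Igfbp7 encodes a secreted protein that binds insulin-like growth factors and is abundant in blood vessels (ENSMUSG00000036256, chromosome 5, 77349240 to 77408041, minus strand). It was at 222, 233 and 257 CPM in sham kidneys, 223, 245 and 353 CPM 5d post-MI and 225, 261 and 295 CPM 28d post-MI. The groups overlapped, while 7 of 8 kidneys at 5d and 5 of 6 at 28d were above the sham mean. The log2 fold change was 0.16 at 5d post-MI against sham (SE 0.075, 95% confidence interval 0.0091 to 0.32, unadjusted p = 0.0387, adjusted p = 0.598 from edgeR) and 0.14 at 28d post-MI against sham (SE 0.081, adjusted p = 0.672). The 5d value was 0.091 without 5d post-MI replicate 3, the kidney with 353 CPM, and stayed above 0 in the 33 alternative fits, with adjusted p-values of 0.231 to 0.863. The coefficient of variation was 4.86% in sham and 17.0% 5d post-MI, where counting alone gives 3.68% and 3.57%. Igfbp7 overlaps Gm34648 and Polr2b on the opposite strand.

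Across kidneys, the 10 genes did not move as a block. Deviations from the group means of log2 CPM were compared for all 45 pairs over 22 kidneys, with permutation within groups and adjustment over the pairs. Pearson's r ranged from −0.56 to 0.71 with a median of 0.076, and 0 of 45 pairs had an adjusted p-value below 0.05. By Spearman's rho, 1 of 45 pairs was called. That pair was Krt8 and Krt18, with r of 0.709 (permutation p = 0.00119, adjusted p = 0.0535) and rho of 0.782 (permutation p = 6e-05, adjusted p = 0.0027). Without the 2 kidneys farthest from the median of Krt8, r was 0.708. The lowest r belonged to Vcam1 and Igfbp7, at −0.56 (permutation p = 0.0251, adjusted p = 0.532).

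**Figure D4:**
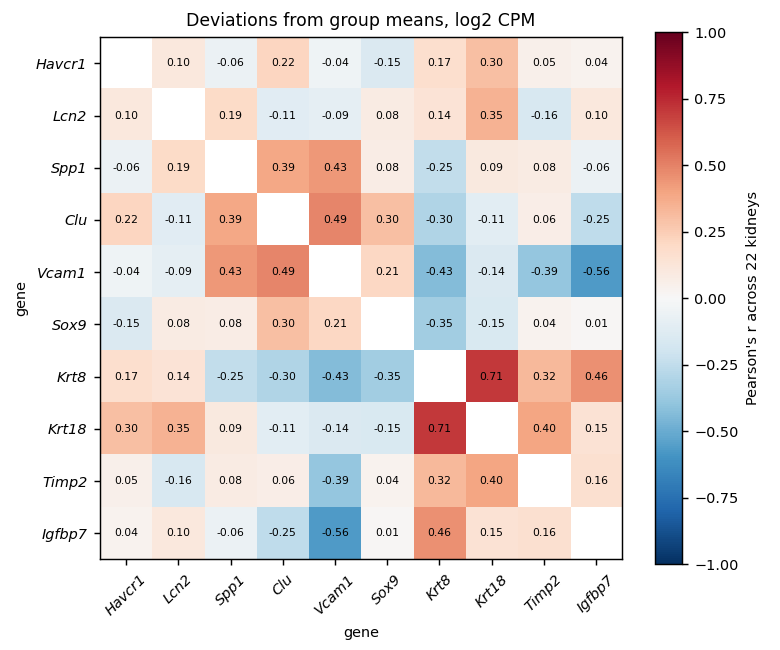
Pearson's r for each pair of the 10 genes, over deviations of log2 CPM from the group mean in 22 kidneys, with red for positive and blue for negative values. The highest value, 0.71, is that of Krt8 and Krt18, and the lowest, −0.56, is that of Vcam1 and Igfbp7.

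As a description, the genes most like each member in these deviations were listed over 22 kidneys, with both genes read in the same library. They were taken from 11215 genes with a mean of at least 5 CPM. For Krt18 they were S100a6 (r = 0.902), Muc1 (r = 0.901), an epithelial mucin, and Hacd4 (r = 0.872). For Krt8 they were Fibp (r = 0.802), Slc4a11 (r = 0.772) and Wnt7b (r = 0.760). Spp1 was closest to Hmgn3 (r = 0.800), Alg10b (r = 0.799) and Lgalsl (r = 0.750), and Clu to Psme4 (r = 0.802), Ndufc1 (r = 0.775) and Mdh1 (r = 0.747). Vcam1 was closest to Actb (r = 0.823), the gene of beta-actin, and then to Gspt1 (r = 0.746). Timp2 was closest to Peg13 (r = 0.743), Anxa3 (r = 0.729) and Ercc6l2 (r = 0.728), and Igfbp7 to Gm29216 (r = 0.814), Gm4332 (r = 0.800) and mt-Co1 (r = 0.791), which is encoded by mitochondrial DNA.

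Other genes known to rise in the injured tubule were read in the same fits. Of 45 such genes, 33 were tested, and 0 were called in either direction at 5d post-MI or at 28d post-MI against sham. At 28d against 5d post-MI, 3 were called higher and 0 lower, namely Atf3, Gdf15 and Cxcl1, beside 0.415% of all genes tested. The list was chosen with earlier results of these data known. The median log2 fold change of the 33 genes was 0.030, −0.093 and −0.14 in the 3 comparisons, beside 0.00018, −0.0012 and −0.0046 over all genes.

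Atf3, a transcription factor of the stress response, was at 0.744, 3.15 and 5.62 CPM in sham kidneys (lowest, median and highest), 0, 1.39 and 3.12 CPM 5d post-MI and 3.91, 6.496 and 10.4 CPM 28d post-MI. The log2 fold change at 28d against 5d was 2.06 (SE 0.36, adjusted p = 0.00287), with no overlap between the groups. It rested on low counts, 0 to 9 per kidney at 5d and 11 to 26 at 28d. The kidney at 0 had 2425050 counts, which allows up to 1.24 CPM before scaling with TMM factors. Gdf15, a circulating stress cytokine, was at 13.7, 17.9 and 32.9 CPM in sham, 8.96, 11.2 and 23.9 CPM 5d post-MI and 26.4, 32.0 and 54.2 CPM 28d post-MI. Its log2 fold change at 28d against 5d was 1.45 (SE 0.22, adjusted p = 0.00342), also with no overlap. The share of all genes tested with no overlap between these 2 groups was not counted. Cxcl1, a chemokine that draws neutrophils, was at 5.27, 8.28 and 14.8 CPM in sham, 0.420, 3.02 and 6.98 CPM 5d post-MI and 6.76, 9.05 and 13.4 CPM 28d post-MI. Its log2 fold change at 28d against 5d was 1.38 (SE 0.30, adjusted p = 0.0249). The highest kidney at 5d, at 6.98 CPM, overlapped the lowest at 28d, at 6.76 CPM.

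Against sham, Atf3 differed by −1.06 (SE 0.37, adjusted p = 0.444) at 5d and 1.001 (SE 0.31, adjusted p = 0.290) at 28d post-MI. Gdf15 differed by −0.66 (SE 0.22, adjusted p = 0.444) and 0.79 (SE 0.21, adjusted p = 0.231), and Cxcl1 by −1.14 (SE 0.28, adjusted p = 0.133) and 0.25 (SE 0.26, adjusted p = 0.864). For these 3 genes, the 5d kidneys thus lay below and the 28d kidneys above sham in the mean. Of the 8 kidneys at 5d post-MI, 2 were below every sham kidney for Atf3, 6 for Gdf15 and 6 for Cxcl1. In alternative fits, Gdf15 at 28d post-MI against sham was called in 2 of 33, both with DESeq2 (adjusted p = 0.0490 on all kidneys and 0.00952 on the groups alone). Cxcl1 at 5d post-MI against sham was called in 3 of 33, namely in DESeq2 on all kidneys (adjusted p = 0.0191), with no filter on low counts (adjusted p = 7.55e-05) and with the replicate block (adjusted p = 0.0251). At 28d against 5d post-MI, Cxcl1 was called in 27 of 33. The call was lost in edgeR on the groups alone (adjusted p = 0.0502) and when 1 of 5 kidneys was left out, with adjusted p-values of 0.0594 (5d post-MI replicate 2), 0.0518 (5d post-MI replicate 3), 0.0615 (5d post-MI replicate 5), 0.0642 (28d post-MI replicate 6) and 0.0764 (28d post-MI replicate 7). The calls of Atf3 and Gdf15 were kept in all 33 alternative fits. The lowest p-values of the list in the other directions belonged to Cdh6 at 5d post-MI against sham (log2 fold change 0.24, SE 0.15, adjusted p = 0.730), C3 at 28d post-MI against sham (−0.44, SE 0.16, adjusted p = 0.444) and S100a10 at 28d against 5d post-MI (−0.17, SE 0.060, adjusted p = 0.296).

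**Figure D5:**
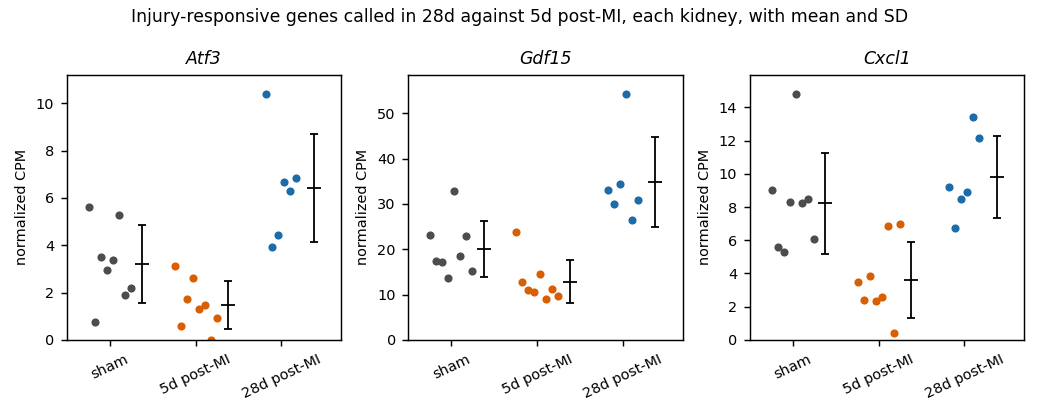
Atf3, Gdf15 and Cxcl1 in each kidney, in normalized CPM on a linear axis from 0, with the mean and SD of each group. The 28d post-MI kidneys lie above all 5d post-MI kidneys for Atf3 and Gdf15, and for Cxcl1 the 2 groups meet at about 6.76 to 6.98 CPM.

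Receptors and partners of the marker proteins were tested for 10 of 15 genes, with 0 called in any of the 3 comparisons. Itgav, an integrin chain that binds osteopontin, had a log2 fold change of 0.17 at 5d post-MI against sham (SE 0.061, unadjusted p = 0.00982, adjusted p = 0.458) and of −0.18 at 28d against 5d post-MI (SE 0.067, adjusted p = 0.330). Lrp2, the endocytic receptor megalin, which takes up lipocalin-2 from the filtrate, differed by 0.14 at 28d post-MI against sham (SE 0.053, adjusted p = 0.444) and by 0.14 at 28d against 5d post-MI (SE 0.053, adjusted p = 0.371). The lowest p-values among decreases against sham belonged to Itga5 at 5d (−0.45, SE 0.25, adjusted p = 0.703) and Itga9 at 28d (−0.24, SE 0.17, adjusted p = 0.762), integrin chains that bind fibronectin and osteopontin.

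Among TIMP and matrix metalloproteinase genes, 4 of 10 were tested and 0 were called. Adamts1, a secreted metalloproteinase, had the lowest p-value, with a log2 fold change of 0.55 at 28d post-MI against sham (SE 0.12, adjusted p = 0.0721) and 0.46 at 28d against 5d post-MI (SE 0.12, adjusted p = 0.0713). It was called in 10 and 8 of 33 alternative fits, with adjusted p-values from 0.000342 to 0.200 and from 0.00490 to 0.228. At 5d post-MI against sham it differed by 0.088 (SE 0.11, adjusted p = 0.914). Mmp14, the membrane-bound enzyme that works with TIMP-2, differed by −0.31 at 5d post-MI against sham (SE 0.18, adjusted p = 0.703). Reck, a membrane inhibitor of these enzymes, differed by −0.46 at 28d post-MI against sham (SE 0.23, adjusted p = 0.590) and by −0.14 at 28d against 5d post-MI (SE 0.24, adjusted p = 0.929).

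All 10 genes of the IGF binding protein and IGF list were tested and 0 were called in any of the 3 comparisons. Igfals, which encodes the acid-labile subunit that keeps IGF complexes in the blood, differed by 0.50 at 5d post-MI against sham (SE 0.16, adjusted p = 0.425) and by −0.54 at 28d against 5d post-MI (SE 0.18, adjusted p = 0.268). Igfbp4 had an unadjusted p of 0.0479 at 5d post-MI against sham, where its log2 fold change was 0.25 (SE 0.12, adjusted p = 0.630 from edgeR). It had the lowest p-value among positive differences at 28d post-MI against sham (0.14, SE 0.13, adjusted p = 0.839), and Igfbp5 had the lowest among negative differences there (−0.29, SE 0.15, adjusted p = 0.601). Igfbp3 had the lowest p-value among negative differences at 5d post-MI against sham (−0.21, SE 0.13, adjusted p = 0.748), and Igfbp2 the lowest among positive differences at 28d against 5d post-MI (0.52, SE 0.43, adjusted p = 0.799).

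Transport and other tubule genes that are known to fall on injury were tested for 22 of 23 genes, with 0 called in either direction in any of the 3 comparisons. Their median log2 fold change was 0.00075 at 5d post-MI against sham, 0.13 at 28d post-MI against sham and 0.091 at 28d against 5d post-MI, beside 0.00018, −0.0012 and −0.0046 over all genes. At 28d post-MI against sham, 20 of 22 had a positive log2 fold change, beside 49.6% of all genes tested. In the same comparison, positive log2 fold changes were found for 6 of 7 proximal tubule markers (median 0.11), 5 of 5 thick ascending limb markers (median 0.11) and 5 of 5 podocyte markers (median 0.21). They were found for 0 of 8 fibroblast and mural cell markers (median −0.32) and 0 of 5 adipocyte markers (median −0.89). Among red blood cell markers, 0 of 4 were positive (median −0.30). In the other lists, 6 of 9 collecting duct and medulla markers and 3 of 5 intercalated cell markers were positive. So were 4 of 8 endothelium, 3 of 9 macrophage and leukocyte, and 2 of 5 urothelium markers. None of these markers was called in edgeR. Summed fibroblast and mural cell markers were at 310.1 to 406 CPM in sham and 248 to 336 CPM 28d post-MI, and summed adipocyte markers at 151 to 866 CPM and 155 to 455 CPM. Of the 23 tubule genes, 10 are also in the proximal tubule or thick ascending limb marker lists. The part of these markers in the result was not tested. Egf, made by the distal tubule, differed by 0.21 at 5d (SE 0.061, adjusted p = 0.307) and 0.17 at 28d post-MI against sham (SE 0.066, adjusted p = 0.428). It was called at 5d in 1 of 33 alternative fits, that with no filter on low counts (adjusted p = 0.0112). Gatm, an enzyme of creatine synthesis in the proximal tubule, differed by −0.28 at 5d post-MI against sham (SE 0.12, adjusted p = 0.587). Slc5a12, a lactate transporter of the proximal tubule, differed by −0.32 at 28d post-MI against sham (SE 0.11, adjusted p = 0.335) and −0.36 at 28d against 5d post-MI (SE 0.11, adjusted p = 0.173). The latter was called in 1 of 33 alternative fits, also with no filter (adjusted p = 0.0260). The urate transporter Slc22a12 differed by 0.29 at 28d against 5d post-MI (SE 0.094, adjusted p = 0.289).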

How the data were processed

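Kidney RNA of 24 mice was sequenced from transcript 3′ ends with molecular identifiers. According to the methods and the submitters' processing notes, the authors trimmed reads with cutadapt, mapped them with Bowtie2, and counted reads per gene with HTSeq. The deposited values used here are these raw counts per Ensembl gene, with PCR duplicates removed. The methods name the mm10 build and the processing notes mm39, and the strand setting is not given in the sources used here. Positions and gene names come from GRCm38 (GENCODE M21) and promoters from RefSeq (GRCm38.p6). TPM columns were not used. Of 48 value columns, 26 were not used, among them 4 that share a name in pairs, so that 2 kidneys (5d post-MI replicate 4 and 28d post-MI replicate 5) could not be assigned and were left out. Each of 71 library pairs within groups differed by more than counting noise (chi-square per degree of freedom of at least 1.73).

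A group model was fitted over 22 kidneys with edgeR 4.0.16 (R 4.3.3), TMM scaling, the filterByExpr minimum of 10 counts and the robust quasi-likelihood F test. P-values were adjusted by Benjamini-Hochberg over 12780 genes and called below 0.05. The 3 genes under the filter were compared by exact permutation of mean log2 CPM (prior count 2). Alternatives were DESeq2 1.42.0, limma voom (limma 3.58.1), DESeq2 size factors in edgeR, no filter, the groups compared alone, a replicate block, each kidney left out, the kidneys with adrenal cortex markers over 100 CPM left out, and marker covariates. The fits were tested on simulated data. Intervals for a count of 0 use 3 counts over the library total without TMM factors, and cover counting error only.

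The 10 genes and all gene lists were chosen with earlier results of these data known. Besides the 10 genes, the text names the called genes of each list, the gene of lowest p-value in each list, comparison and direction, and for each tested member the 3 genes of highest Pearson's r with a mean of at least 5 CPM. A gene that this rule names is not reported here.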

Additional observations from a re-analysis of the deposited data

Results flagged for a closer look

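Between 28d and 5d post-MI, 3 injury genes outside the marker set differed by the test of the difference itself in edgeR. They come from a list chosen with earlier results of these data known. The log2 fold changes were 2.06 for Atf3 (adjusted p = 0.00287), 1.45 for Gdf15 (adjusted p = 0.00342) and 1.38 for Cxcl1 (adjusted p = 0.0249). Single kidneys stood far from the others of their group for 8 values, by Dixon's ratio of the gap to the range. For genes these were Cxcl1 in sham replicate 5 (14.8 CPM), Gdf15 in 5d post-MI replicate 1 (23.9 CPM) and Gdf15 in 28d post-MI replicate 4 (54.2 CPM). For summed markers they were urothelium in 5d post-MI replicate 7 (162 CPM), macrophages and leukocytes in 5d post-MI replicate 1 (348 CPM), adipocytes in 28d post-MI replicate 7 (455 CPM), adrenal cortex in 5d post-MI replicate 5 (84.6 CPM) and red blood cells in sham replicate 4 (2185 CPM). These 8 came from 48 groups of values, and chance flags about 1 in 20. Among the 10 markers themselves, 0 of 30 groups of values held such a kidney.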

How the results depend on the processing

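No setting called any of the 7 tested markers against sham. At 28d against 5d post-MI, 1 marker (Spp1) was called in DESeq2 on all kidneys, in DESeq2 on the groups alone, with no filter, with the replicate block and with the adipocyte covariate, and 0 to 1 when each kidney was left out. Among the genes under the filter, 1 test below 0.05 became 0 on the CPM scale. The number of all genes called depended on the setting, and the cause was not tested. At 5d post-MI against sham it was 9, and became 36 (DESeq2, all kidneys), 29 (DESeq2, groups alone), 2 (edgeR, groups alone), 22 (limma voom), 80 (no filter), 1 (without the adrenal kidneys) and 1 (adipocyte covariate). At 28d post-MI against sham it was 3, and became 33, 70, 31, 11 and 94 in the first 5 of these settings, 1 without the adrenal kidneys, 9 with the medulla covariate and 5 with the urothelium covariate, which was chosen after seeing the data. At 28d against 5d post-MI it was 53, and became 91 (DESeq2, all kidneys), 89 (DESeq2, groups alone), 26 (edgeR, groups alone), 160 (no filter) and 94 (medulla covariate). With each kidney left out it was 1 to 38 (38 without 5d post-MI replicate 1), 0 to 29 (0 without 28d post-MI replicate 2 or 7, 29 without sham replicate 8) and 41 to 84 (84 without 5d post-MI replicate 1). It moved by more than 1.5 times for 18, 13 and 1 of the 22 kidneys.

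Replicate numbers did not pair the kidneys. Deviations of 18 same-numbered pairs correlated at −0.13 to 0.090, and 2 of 22 kidneys correlated best with their own number. With the replicate block, the calls over all genes were 2, 24 and 80, and Spp1 at 28d against 5d post-MI had an adjusted p-value of 0.0395.

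Log2 fold changes near 0 changed sign without a call. With the replicate block, Clu had −0.0073 (5d against sham), 0.0092 (28d against sham) and 0.017 (28d against 5d), Vcam1 0.0049 (28d against 5d), Krt8 −0.033 and Timp2 0.0037 (both 28d against sham). With the adipocyte covariate, Clu had 0.074, Krt8 −0.039 and Timp2 0.041 (28d against sham), Vcam1 0.034 (5d) and 0.033 (28d against sham), and Krt18 0.024 (28d against 5d). With the urothelium covariate, Krt18 had 0.14, 0.26 and 0.13, and Timp2 0.040 (28d against sham). Without the adrenal kidneys, Krt8 had −0.011 and Timp2 0.044, and with the medulla covariate Krt8 had −0.028 (28d against sham). In DESeq2 on all kidneys and on the groups alone, Krt18 had 0.00070 and 0.0013 (28d against 5d) and Timp2 0.0036 and 0.0048 (28d against sham), and in limma voom Krt18 had 0.078 (28d against 5d). With each kidney left out, the ranges that crossed 0 at 5d against sham were −0.047 to 0.054 (Clu), −0.17 to 0.015 (Vcam1) and −0.0064 to 0.083 (Krt8). At 28d against sham they were −0.064 to 0.015 (Clu), −0.028 to 0.047 (Krt8) and −0.057 to 0.031 (Timp2). At 28d against 5d they were −0.088 to 0.020 (Clu), −0.16 to 0.078 (Vcam1), −0.077 to 0.013 (Krt8), −0.12 to 0.24 (Krt18) and −0.072 to 0.047 (Igfbp7).

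The rank correlation of Krt8 and Krt18 kept its call with variance-stabilized counts (rho 0.783, permutation, adjusted p = 0.00450) and without the adrenal kidneys (rho 0.762, permutation, adjusted p = 0.0391). Havcr1, Lcn2 and Sox9 rested on 0 to 16 counts per kidney. How far depth, and how far differences between kidneys, limit their tests was not tested. Outside the markers, calls were gained for Cxcl1 (5d against sham, 3 of 33 alternatives), Gdf15 (28d against sham, 2 of 33), Egf (5d against sham, 1 of 33) and Slc5a12 (28d against 5d, 1 of 33), and Cxcl1 at 28d against 5d lost its call in 6 of 33.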
